A study of Rattus norvegicus with 6 samples.

Results

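The peroxiredoxins are a family of 6 thiol peroxidases in mammals, encoded in the rat by Prdx1 to Prdx6, and their transcripts were followed here in the kidney of a rat model of focal segmental glomerulosclerosis (FSGS), a disease in which parts of the filtering units scar. The 6 genes were found by gene ID in a deposited table of 21986 genes: Prdx1 is ENSRNOG00000017194 on chromosome 5, Prdx2 is ENSRNOG00000003520 on chromosome 19, Prdx3 is ENSRNOG00000010958 on chromosome 1, Prdx4 is ENSRNOG00000003763 on chromosome X, Prdx5 is ENSRNOG00000021125 on chromosome 1 and Prdx6 is ENSRNOG00000002896 on chromosome 13. The table lists IDs and chromosomes without symbols, so the pairing of ID and symbol was taken as given. All 6 IDs were present, and the chromosome of each was the one that RefSeq gives for the symbol. All 6 passed the filter on low values and were tested. By the form of the symbol alone, RefSeq lists 7 pseudogenes of Prdx1 and 1 further gene named after it, of a type not read. It lists 3 pseudogenes of Prdx6, 1 of Prdx3 and 0 of the others. Reads shared with such copies could have been divided between genes, which the table cannot show, so the levels of Prdx1, Prdx6 and Prdx3 are less certain in this respect.

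Libraries of poly(A) RNA came from kidneys of wild-type male Wistar rats, 3 control and 3 FSGS. The FSGS rats had the left kidney removed. They were then given adriamycin, an anthracycline toxic to glomerular cells, by tail vein: 5 mg/kg at postoperative day 7, then 3 mg/kg at day 28. Control rats were injected with saline, and the sources mention no operation in them, so loss of a kidney and the drug cannot be told apart. The title of every library, FSGS included, also carries the word untreated, which the titles do not explain. The age of the animals, the day of sampling and whether each library is 1 animal are not stated in the sources used here, and p-values measure the spread between these libraries, which may be partly technical. Values are FPKM, fragments mapped to a gene, scaled for its length and for the size of the library. In whole-kidney RNA, fewer cells of a type and less RNA per cell cannot be told apart.

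Peroxiredoxins reduce hydrogen peroxide, organic peroxides and peroxynitrite with a reactive cysteine, which is then restored by a thiol donor. In Prdx1 to Prdx4 the oxidised cysteine forms a bond with a cysteine of the partner subunit, and in Prdx5 usually with one of the same subunit; thioredoxin reduces these bonds. Prdx6 has a single catalytic cysteine and uses glutathione. The members also differ by place: Prdx1 and Prdx2 are mainly cytosolic, Prdx3 is mitochondrial, Prdx4 belongs to the endoplasmic reticulum and is also secreted, Prdx5 is found in mitochondria, peroxisomes and cytosol, and Prdx6 is mainly cytosolic. In the kidney, where mitochondria are dense in the tubules, they are among the main enzymes that clear peroxide.

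The promoters of 5 members are printed so that the letters before each start can be set beside the members' transcript values. Each is the 250 bases before the gene start in the RefSeq promoter table, in build GRCr8, written in the direction of transcription; the build of the expression table was not given in the sources used here. They lie at chr5:135383656-135383905 on the plus strand for Prdx1, chr19:40090983-40091232 on the minus strand for Prdx2, chr1:270000112-270000361 on the minus strand for Prdx3, chrX:43878483-43878732 on the plus strand for Prdx4 and chr1:213532028-213532277 on the minus strand for Prdx5. Capitals mark matches, on either strand, to any of 6 motifs: the core of the antioxidant response element bound by Nrf2 (TGACNNNGC), the AP-1 site (TGANTCA), the GC box (GGGCGG), the CCAAT box (CCAAT), the TATA box (TATAAA) and an E-box (CACGTG).
Prdx1: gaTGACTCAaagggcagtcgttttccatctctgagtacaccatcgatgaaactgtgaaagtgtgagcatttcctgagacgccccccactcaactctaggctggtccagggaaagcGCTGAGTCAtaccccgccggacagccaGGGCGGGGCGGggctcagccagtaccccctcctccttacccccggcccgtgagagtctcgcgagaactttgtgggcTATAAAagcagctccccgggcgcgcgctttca
Prdx2: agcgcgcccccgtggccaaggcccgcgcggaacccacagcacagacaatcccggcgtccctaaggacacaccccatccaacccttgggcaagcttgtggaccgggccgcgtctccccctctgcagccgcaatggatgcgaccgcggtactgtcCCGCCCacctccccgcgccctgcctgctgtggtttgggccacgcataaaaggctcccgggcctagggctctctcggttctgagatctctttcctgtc
Prdx3: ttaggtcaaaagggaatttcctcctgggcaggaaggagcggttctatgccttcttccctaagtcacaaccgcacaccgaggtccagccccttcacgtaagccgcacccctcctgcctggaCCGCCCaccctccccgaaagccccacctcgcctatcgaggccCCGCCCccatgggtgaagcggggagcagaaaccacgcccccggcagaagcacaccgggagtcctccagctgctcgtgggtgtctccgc
Prdx4: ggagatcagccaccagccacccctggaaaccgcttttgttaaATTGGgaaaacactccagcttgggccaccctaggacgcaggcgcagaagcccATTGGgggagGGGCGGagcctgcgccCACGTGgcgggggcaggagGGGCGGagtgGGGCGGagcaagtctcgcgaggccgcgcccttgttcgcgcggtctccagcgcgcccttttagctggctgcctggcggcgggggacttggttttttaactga
Prdx5: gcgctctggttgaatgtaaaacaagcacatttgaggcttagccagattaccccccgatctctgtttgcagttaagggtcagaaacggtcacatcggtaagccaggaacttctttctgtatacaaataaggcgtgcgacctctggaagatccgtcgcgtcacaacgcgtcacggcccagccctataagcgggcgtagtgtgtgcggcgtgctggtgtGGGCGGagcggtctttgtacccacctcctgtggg

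The Prdx1 promoter held 1 match to the antioxidant response element core, GCTGAGTCA, from 135 to 127 bases before the start on the opposite strand. An AP-1 match from 133 to 127 bases before the start lies wholly inside it, so both matches share the same letters. The Prdx1 window also held another AP-1 match from 248 to 242 bases before the start, a pair of overlapping GC boxes and a TATA box from 32 to 27 bases before it. The other 4 windows held no match to the antioxidant response element core, the AP-1 site or the TATA box, which says only that these letters are not in these 250 bases. All 5 windows held at least 1 GC box, with 3 in Prdx4, 2 in Prdx3 and 1 each in Prdx2 and Prdx5. Prdx4 alone of the 5 had CCAAT boxes, of which there were 2, and an E-box. Among all 33469 promoter windows of the same length, 10.1% held the antioxidant response element core, 6.34% an AP-1 site, 30.5% a GC box, 34.0% a CCAAT box, 12.9% a TATA box and 5.59% the E-box. The windows were 60% G or C in Prdx1, 67.2% in Prdx2, 64.8% in Prdx3, 66% in Prdx4 and 55.2% in Prdx5, against a median of 51.2% over all windows. The motif shares over all windows were not matched for G and C, so the GC boxes are not read as enriched. A match is a description of letters and was not tested as a binding site.

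**Figure D1:**
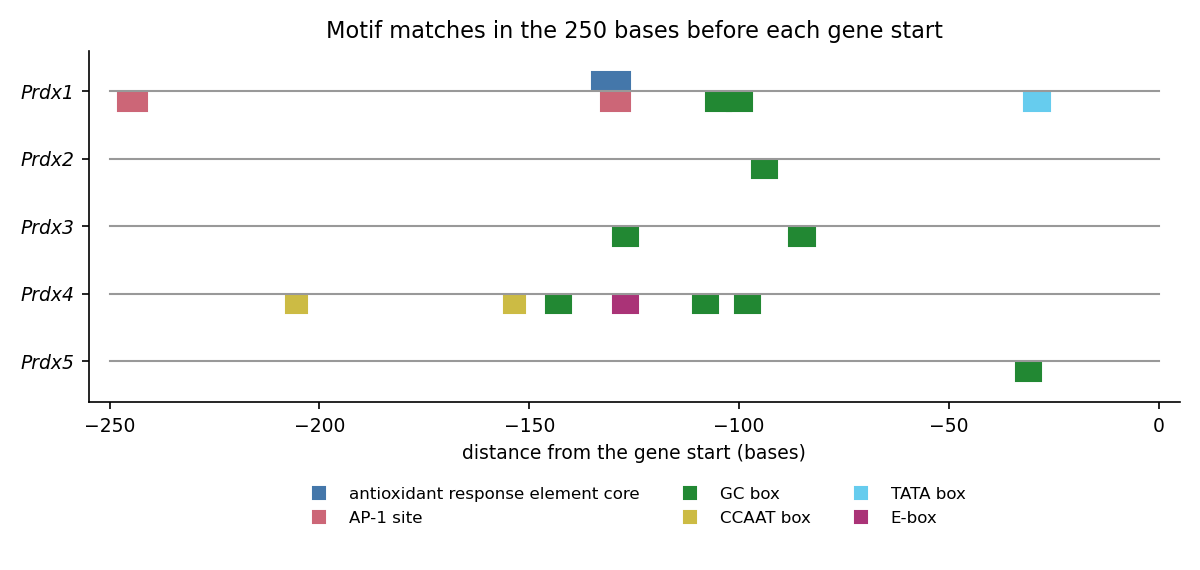
Positions of motif matches in the 250 bases before the gene start of 5 peroxiredoxin genes; the x axis is the distance from the start in bases, each grey line is 1 gene, and each coloured block is 1 match, with the antioxidant response element core drawn above the line and other motifs below it. Prdx1 holds the only match to the antioxidant response element core among the 5, over an AP-1 match, and a TATA box 32 bases before the start.

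Transcripts of 3 members fell in FSGS kidney: Prdx6, Prdx5 and Prdx1 were at 53.4%, 55.7% and 64.1% of their control means. Prdx3, Prdx2 and Prdx4 did not pass the test, with FSGS means at 78.9%, 105% and 137% of control. Over all genes, 17.0% of the 14139 genes tested fell and 27.0% rose (limma on log2(FPKM + 1), Benjamini-Hochberg adjusted p under 0.05 over all genes), against 3 of 6 members falling and 0 rising. The members' median log2 change was -0.49, and that of all genes tested was 0.11. Falls were commoner among abundant transcripts: of 829 nuclear genes with a mean of 50 to under 250 FPKM, the range that holds every member but Prdx4, 42.2% fell and 20.5% rose, with a median log2 change of -0.27. Read against that class, 3 of 5 members falling is not far from its background. The FSGS and control values did not overlap in 4 of 6 members, all 4 with FSGS lower, against 55.6% of all genes tested in either direction and 21.0% with FSGS lower. No such share was computed for the class of 50 to under 250 FPKM, where falls were commoner.

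**Figure D2:**
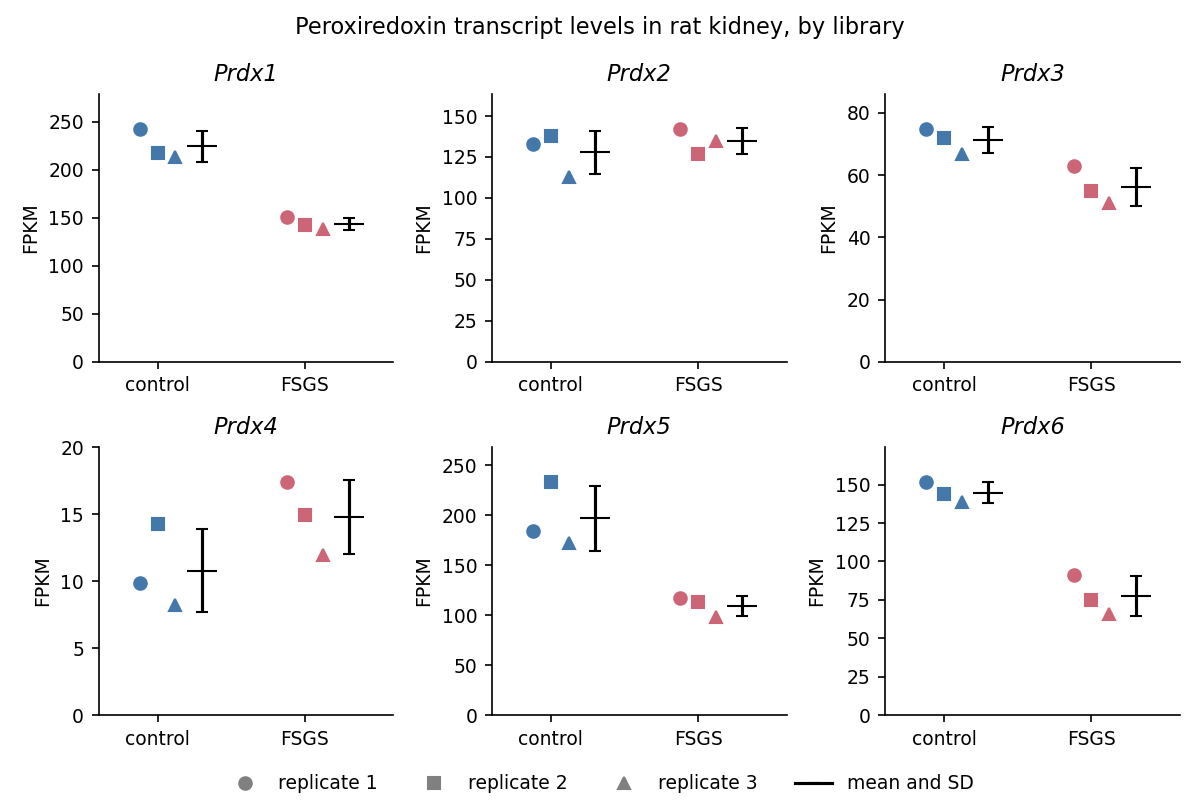
FPKM of each peroxiredoxin gene in each library; each panel is 1 gene with its own axis from 0, symbols are the replicates of control (blue) and FSGS (red), and black bars are mean and SD (n = 3 each). The FSGS values lie below all control values in Prdx1, Prdx3, Prdx5 and Prdx6, and the groups overlap in Prdx2 and Prdx4.

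Among the cytosolic members, Prdx1, which scavenges peroxide and also acts as a chaperone when overoxidised, had the highest mean of the family in both groups. It stood at 243, 218 and 213 FPKM in controls 1, 2 and 3, against 151, 142 and 138 FPKM in FSGS 1, 2 and 3. All 3 FSGS values were thus below the lowest control, and the spread within each group was small. The means were 224 ± 16.1 and 144 ± 6.36 FPKM (SD, n = 3 each). Its log2 change was -0.64 ± 0.13 (SE), with a 95% interval from -0.93 to -0.35 and a limma adjusted p of 0.00389. This is the one fall whose call was lost under a column scaling: with quantile normalization, which gives every library the same distribution of values, the log2 change was -0.24 (limma adjusted p = 0.0542).

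Prdx2, the close relative of Prdx1 that is very abundant in red blood cells, showed a different picture. Its values were 133, 138 and 113 FPKM in controls 1, 2 and 3, against 142, 127 and 135 FPKM in FSGS 1, 2 and 3. The groups overlapped, with control 3 the lowest library and FSGS 1 the highest. The means were 128 ± 13.2 and 135 ± 7.93 FPKM (SD, n = 3 each), and the log2 change was 0.08 ± 0.13 (SE; limma adjusted p = 0.668). The 95% interval of that change, -0.23 to 0.38, leaves room for a modest difference in either direction. The sign of its estimate depended on the scaling, at -0.06 with median-of-ratios scaling, which sets each library by its median gene, and -0.21 as TPM, which brings each library to the same total. With quantile normalization Prdx2 was called as rising, with a log2 change of 0.52 (limma adjusted p = 0.00181).

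Prdx6, the single-cysteine member, which also has phospholipase A2 activity and helps repair oxidised membrane lipids, fell by 0.91 on the log2 scale. It was at 152, 144 and 139 FPKM in controls 1, 2 and 3, against 91.4, 74.7 and 65.7 FPKM in FSGS 1, 2 and 3. The gap between the groups was wide, since the highest FSGS library was well below the lowest control. The means were 145 ± 6.74 and 77.3 ± 13.1 FPKM (SD, n = 3 each), the SE of the log2 change was 0.15, and its 95% interval ran from -1.25 to -0.57 (limma adjusted p = 0.00152). The coefficient of variation was 16.9% in FSGS and 4.66% in controls. Of all genes tested, 8.23% had a more negative log2 change.

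Of the members that work in mitochondria, Prdx5 fell and Prdx3 did not pass the test. Prdx5, which reduces peroxynitrite and organic peroxides with particular speed, was at 185, 234 and 172 FPKM in controls 1, 2 and 3, against 117, 114 and 98.3 FPKM in FSGS 1, 2 and 3. Control 2 was well above the other controls, and all FSGS values were below the lowest control. The means were 197 ± 32.4 and 110 ± 9.97 FPKM (SD, n = 3 each), with a log2 change of -0.83 ± 0.16 (SE), a 95% interval from -1.19 to -0.48 and a limma adjusted p of 0.00288. Without control 2 the log2 change was still -0.70 (limma adjusted p = 0.00949, in a fit where 14.4% of all genes fell).

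Prdx3, which handles most of the peroxide made in the mitochondrial matrix, was at 75.0, 72.0 and 66.9 FPKM in controls 1, 2 and 3, against 63.0, 54.8 and 50.9 FPKM in FSGS 1, 2 and 3. The groups did not overlap, but FSGS 1 was close to control 3. The means were 71.3 ± 4.09 and 56.3 ± 6.16 FPKM (SD, n = 3 each). The log2 change was -0.34 ± 0.13 (SE), with a 95% interval from -0.64 to -0.04, an unadjusted limma p of 0.0308 and an adjusted p of 0.0654, above the threshold of 0.05. The call turned with single choices: Prdx3 was called as falling without FSGS 1 (log2 change -0.42, limma adjusted p = 0.0396, with 16.8% of all genes falling), with median-of-ratios scaling (-0.47, limma adjusted p = 0.00311) and as TPM (-0.63, limma adjusted p = 0.0235). With quantile normalization its log2 change was -0.08 (limma adjusted p = 0.455).

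Prdx4, which couples peroxide removal to the oxidative folding of proteins in the endoplasmic reticulum, was the least abundant member, with a mean that was higher in FSGS but did not pass the test. Its values were 9.88, 14.3 and 8.25 FPKM in controls 1, 2 and 3, against 17.4, 15.0 and 12.0 FPKM in FSGS 1, 2 and 3. Control 2 lay above FSGS 3, so the groups overlapped. The means were 10.8 ± 3.10 and 14.8 ± 2.74 FPKM (SD, n = 3 each), and the log2 change was 0.44 ± 0.21 (SE; 95% interval -0.03 to 0.91, limma adjusted p = 0.12). The result rested on control 2: without it Prdx4 was called as rising, with a log2 change of 0.64 (limma adjusted p = 0.0289, in a fit where 24.9% of all genes rose). It was also called after rescaling without the mitochondrial and the 20 most abundant nuclear genes (0.56, limma adjusted p = 0.0223).

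**Figure D3:**
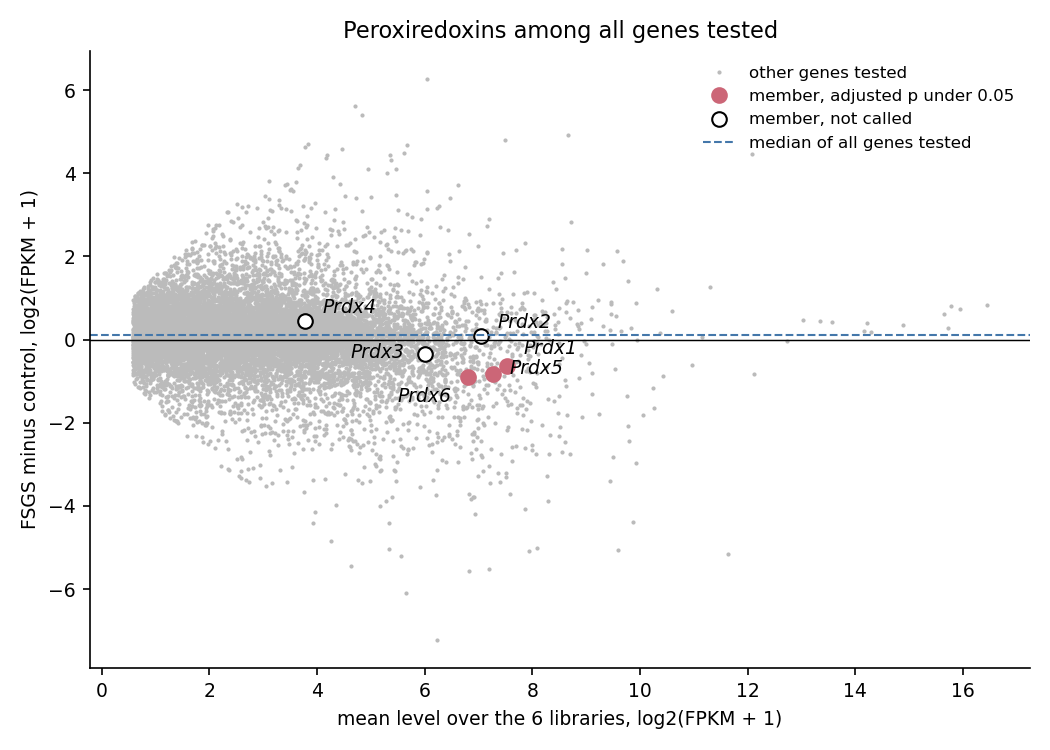
Log2 change (FSGS minus control, y axis) against mean level over the 6 libraries (x axis, log2(FPKM + 1)) for all 14139 genes tested (grey) and the 6 peroxiredoxins (circles; filled red where the adjusted p is under 0.05); the dashed line is the median of all genes, 0.11. Prdx1, Prdx5 and Prdx6 lie together below 0 among the abundant genes, Prdx2 lies at the line and Prdx4 above it. The sign for Prdx2 depends on the column scaling, as does whether Prdx1, Prdx2, Prdx3 and Prdx4 are called.

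The order of the members by level per length differed between the groups in the place of Prdx2. In controls the order was Prdx1, Prdx5, Prdx6, Prdx2, Prdx3 and Prdx4. Prdx1 and Prdx5 did not differ beyond their spread there, since Prdx5 was the higher in control 2. The ranges of Prdx6 and Prdx2 in controls were separate but nearly touched, at no less than 139 FPKM and no more than 138 FPKM. In FSGS the order was Prdx1, Prdx2, Prdx5, Prdx6, Prdx3 and Prdx4. Prdx1 was above Prdx2 in all 3 FSGS libraries, but their ranges overlapped across libraries. Among all 21986 genes ranked by mean FPKM, Prdx2 was at rank 404 in controls and 263 in FSGS, Prdx6 at 347 and 521, Prdx5 at 242 and 336, Prdx1 at 200 and 244, Prdx3 at 726 and 765, and Prdx4 at 4337 and 3449.

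The composition of the peroxiredoxin pool was then taken within each library, because a share of the summed FPKM of the 6 genes does not depend on a scaling by 1 factor per column; quantile normalization can move it. The sum was 797, 819 and 712 FPKM in controls 1, 2 and 3, against 582, 527 and 500 FPKM in FSGS 1, 2 and 3. The FSGS mean of the sum, 536 ± 41.8 FPKM, was 69.1% of the control mean of 776 ± 56.7 FPKM (SD, n = 3 each). Prdx2 made up 16.7%, 16.8% and 15.9% of the pool in controls 1, 2 and 3, against 24.5%, 24.0% and 27.0% in FSGS 1, 2 and 3. Its mean share was thus 8.70 percentage points higher in FSGS, and the controls varied by less than 1 point.

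Prdx4 had a share of 1.24%, 1.74% and 1.16% in controls 1, 2 and 3, against 3.00%, 2.85% and 2.39% in FSGS 1, 2 and 3. The share of Prdx4 did not overlap between the groups, although its FPKM did. Prdx3 took 9.20% ± 0.354 of the pool in controls and 10.5% ± 0.325 in FSGS (SD, n = 3 each), also without overlap. Its share was thus higher in FSGS while its FPKM was lower. With quantile normalization the Prdx3 share was 9.62%, 9.33% and 9.76% in controls 1, 2 and 3, against 10.2%, 9.74% and 9.98% in FSGS 1, 2 and 3, with overlap between them (exact permutation p = 0.2, two-sided). Prdx5 had a mean share of 25.3% ± 2.84 in controls and 20.4% ± 0.992 in FSGS, and Prdx6 of 18.7% ± 1.01 and 14.3% ± 1.29 (SD, n = 3 each). Prdx1 had a share of 29.0% ± 2.1 in controls and 26.9% ± 0.889 in FSGS (SD, n = 3 each), and its groups overlapped. The 5 shares without overlap each gave a two-sided exact permutation p of 0.1, the smallest that 3 against 3 allows. That is 0.12 after adjustment over the 6 members, and Prdx1 gave 0.3. No background was computed for shares of a sum of 6 genes. Groups did not overlap in 55.6% of single genes tested and in 68.8% of ratios of 2 genes of at least 5 FPKM. The 5 of 6 shares are thus not read as particular to this pool. The shares of a library add up to the whole and are not independent of each other.

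**Figure D4:**
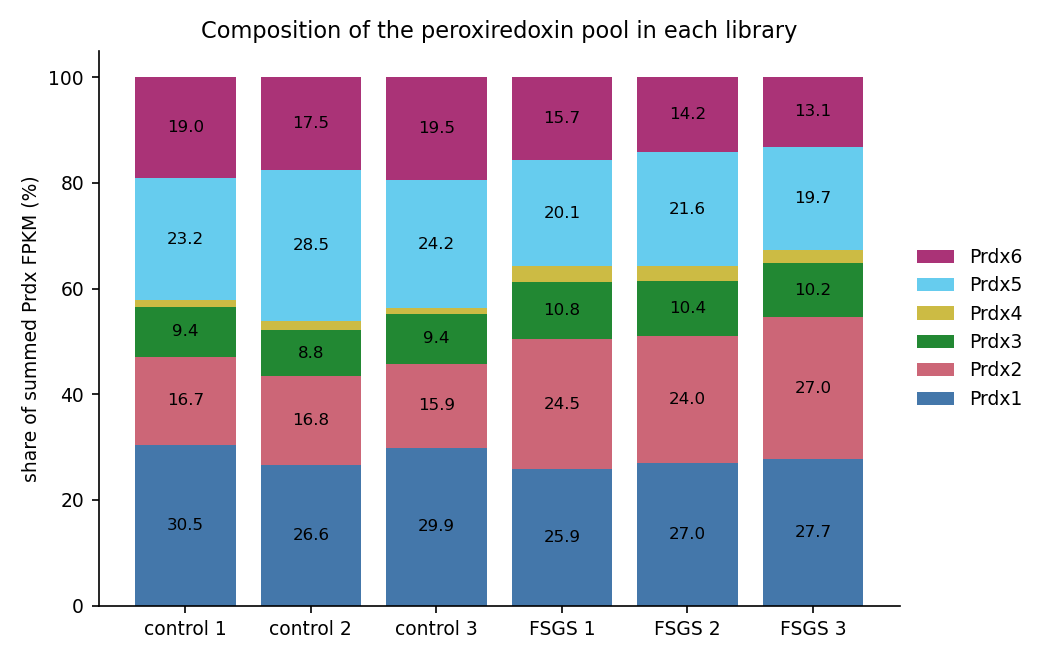
Share of each peroxiredoxin gene in the summed FPKM of the 6 genes (y axis, %), with 1 bar per library and 1 colour per gene; shares above 4% are printed in the bars. The Prdx2 band is 15.9% to 16.8% in the controls and 24.0% to 27.0% in the FSGS libraries, while the Prdx5 and Prdx6 bands are narrower in FSGS.

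Ratios between members within a library gave the same comparison pair by pair. Of the 15 pairs, 12 had ratios that did not overlap between the groups. Among all pairs of 7635 genes with a mean of at least 5 FPKM and above 0 in every library, 68.8% did not overlap. The count of 12 is thus not read as particular to the family, and pairs that share a gene are not independent. The ratio of Prdx1 to Prdx2, both cytosolic, was 1.83, 1.58 and 1.89 in controls 1, 2 and 3, against 1.06, 1.12 and 1.03 in FSGS 1, 2 and 3. Both transcripts were thus near equal per length in FSGS, while Prdx1 led clearly in controls. The ratio of Prdx2 to Prdx6 was 0.875, 0.959 and 0.814 in controls 1, 2 and 3, against 1.56, 1.69 and 2.05 in FSGS 1, 2 and 3, so Prdx2 was the lower of them in every control and the higher in every FSGS library. The ratio of Prdx3 to Prdx5, both found in mitochondria, was 0.406, 0.308 and 0.388 in controls 1, 2 and 3, against 0.538, 0.483 and 0.518 in FSGS 1, 2 and 3. The 3 pairs that overlapped were Prdx5 to Prdx6, Prdx1 to Prdx5 and Prdx2 to Prdx4. For Prdx5 to Prdx6 the ratio was 1.22, 1.63 and 1.24 in controls 1, 2 and 3, against 1.28, 1.52 and 1.5 in FSGS 1, 2 and 3, a mean log2 difference of 0.08 between groups. Each pair without overlap had a two-sided exact permutation p of 0.1, which is 0.125 adjusted over the 15 pairs.

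Column totals differed between the groups, which bears on every level above. Summed FPKM ran from 614047 to 691777 (control) and from 754892 to 824403 (FSGS). Mitochondrially encoded genes made up 51.6% to 62.9% of it in controls and 64.0% to 71.7% in FSGS. The middle of all genes tested, by log2 change, lay at 0.11 in the deposited values, 0.007 with median-of-ratios scaling, 0.01 with quantile normalization, -0.12 after rescaling to TPM and 0.22 after rescaling without the mitochondrial and the 20 most abundant nuclear genes. A scaling by 1 factor per column moves nearly all log2 changes alike, so offsets from the median stay nearly fixed by construction. Of the scalings used, only quantile normalization could move them much. Relative to the median of each fit, Prdx6 lay at -1.02 as deposited and at -0.52 with quantile normalization. It lay between -1.08 and -0.99 under the 3 rescalings by 1 factor per column. Prdx5 lay at -0.94 as deposited, between -1.0 and -0.91 under those 3 and at -0.40 with quantile normalization. Prdx1 lay at -0.75, between -0.81 and -0.72, and at -0.25 in the same order. Prdx2 lay at -0.03, between -0.09 and -0.01, and at 0.51. It was thus near the middle of all genes tested as deposited and under these 3 scalings. Among nuclear genes of 50 to under 250 FPKM, the median log2 change as deposited was -0.27, below the 0.08 of Prdx2. Prdx3 lay at -0.45, between -0.51 and -0.42, and at -0.08, and Prdx4 at 0.33, between 0.30 and 0.35, and at 0.35. The members called as falling numbered 4 of 6 with median-of-ratios scaling (24.6% of all genes fell), 4 for TPM (22.6%), 3 without the mitochondrial and most abundant genes (16.3%) and 2 with quantile normalization (23.7%). A single member was called as rising in each of the last 2, Prdx4 where 39.6% of all genes rose and Prdx2 where 25.8% did.

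**Figure D5:**
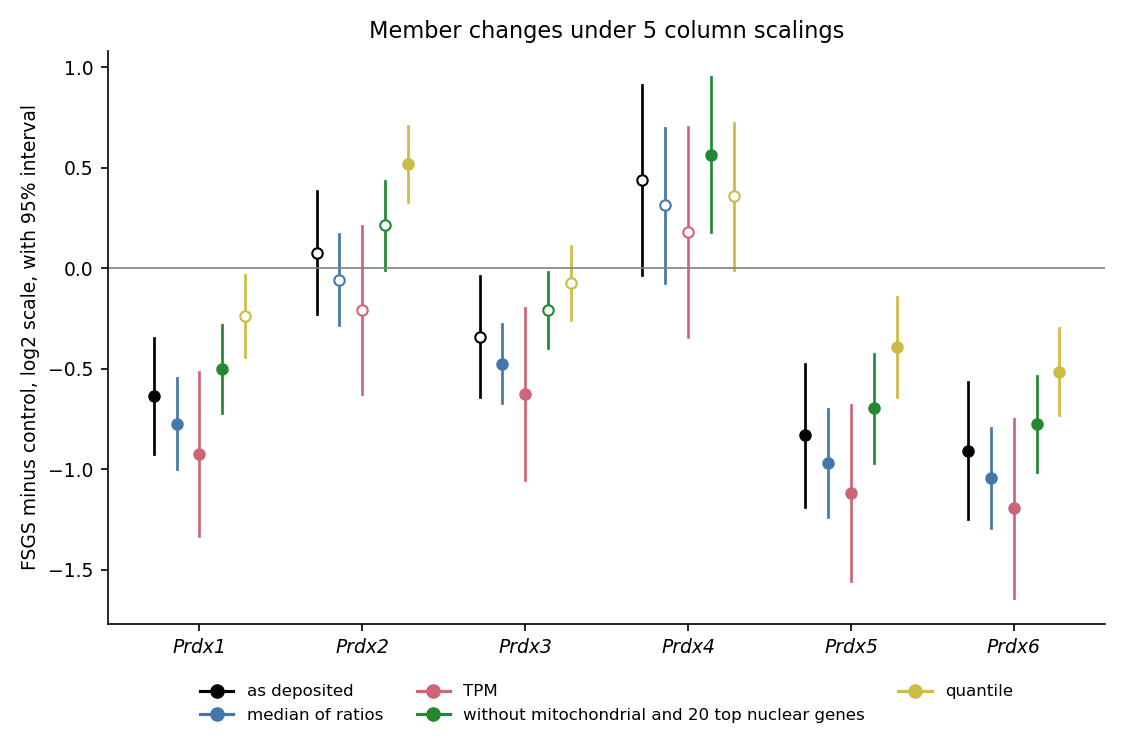
Log2 change (FSGS minus control) of each member with its 95% interval under 5 scalings of the columns; filled circles have a limma adjusted p under 0.05. Prdx5 and Prdx6 lie below 0 and are called in all 5, Prdx1 is called in 4 of them (not with quantile normalization), and Prdx2 changes sign.

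Within the FSGS group, library 1 was the highest of the 3 in every member, and library 3 was the lowest in every member but Prdx2. In Prdx6 the FSGS libraries 1 and 3 were 0.25 above and 0.22 below their group mean on the log2(FPKM + 1) scale. The mitochondrial share was lowest in FSGS 1 (64.0%) and highest in FSGS 3 (71.7%); its part in this spread was not tested. After rescaling without the mitochondrial and the 20 most abundant nuclear genes, Prdx1 was at 147, 148 and 157 in FSGS 1, 2 and 3, so FSGS 1 was then the lowest, while Prdx6 was at 89.2, 77.9 and 74.4 with FSGS 1 still the highest. Among controls, library 2 was the highest in Prdx2, Prdx4 and Prdx5 and library 1 in Prdx1, Prdx3 and Prdx6.

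The likeness of other genes to each member was measured as Pearson's r of log2(FPKM + 1) over the 6 libraries, which takes in the difference between the groups and is given as a description. Of 7645 other genes with a mean of at least 5 FPKM, an r of at least 0.95 was reached by 980 with Prdx6, 815 with Prdx1, 738 with Prdx3, 418 with Prdx5, 73 with Prdx4 and 21 with Prdx2. The gene most like Prdx6 was ENSRNOG00000005828 on chromosome 10 (r = 0.9999), which fell from a mean of 367 to 168 FPKM (limma adjusted p = 0.000893). The gene most like Prdx1 was ENSRNOG00000012665 on chromosome 1 (r = 0.9992), which fell from a mean of 14.3 to 2.22 FPKM (limma adjusted p = 7.47e-05). Thioredoxins, thioredoxin reductases, sulfiredoxin, sestrins, glutathione peroxidases and the kidney cell type markers could not be looked up without symbols and were not analysed here, so the labelled tissue was not checked against its markers.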

How the data were processed

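Kidney poly(A) RNA of 6 libraries, 3 control and 3 FSGS, was sequenced as paired ends after dUTP strand marking, per the labels' protocols. Tools listed in the submitters' processing notes, with no role stated, are HISAT2 2.2.1, cutadapt 1.9, edgeR, StringTie 2.1.6 and DESeq2. Per the file headers the deposited unit is FPKM, which the authors scaled for length of gene and mapped fragments. The values carry at most 2 decimals. Steps of whole reads were sought only in genes undetected in some libraries. Each library pair compared had 16 to 136 such genes of at least 0.3 FPKM in both. No steps were seen in these few genes: no window of 0.05 held over 12.8% of the log2 ratios of any such pair. Depth is therefore unknown, and no counting interval is given.

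The 14139 of 21986 genes whose FPKM averaged 0.5 or more were tested as log2(FPKM + 1) with limma 3.58.1 in R 4.3.3, with group as the only term and a mean-variance trend. Benjamini-Hochberg adjustment covered every gene tested, and the threshold was 0.05. A fold on the log2(FPKM + 1) scale understates the change of low genes. Changes are FSGS minus control. Two-sided exact permutation tests compared shares and ratios between groups. The procedure was tested on simulated data. Figures used matplotlib 3.10.9. Promoter sequences are from RefSeq (GRCr8), with entries for 5 of the 6 genes; the RefSeq gene table carried an Ensembl ID in 0 of 47357 rows, so no other ID was named. All 6 members were named, with the gene most like each member by Pearson's r, of which at most 2 rising and 2 falling IDs were printed. The members and lists were chosen with earlier results of these data known, and the class of 50 to under 250 FPKM was chosen after seeing the members' values. Other scalings, pseudocounts, filters and limma options were tried, as were a block for the replicate number and leaving out each library.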

Additional observations from a re-analysis of the deposited data

How the results depend on the processing

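Prdx5 and Prdx6 were called as falling in each of the 18 other fits, with log2 changes from -1.12 to -0.39 and from -1.20 to -0.51. These fits share libraries and are not independent. Another filter, another limma option or the replicate block left the log2 changes of the members as they were. Prdx1 kept its call in 17 of 18 and lost it with quantile normalization (-0.24, limma adjusted p = 0.0542). Prdx3 gained a call in 4 of 18: -0.47 with median-of-ratios scaling, -0.63 after rescaling to TPM, -0.34 with the replicate block and -0.42 without FSGS 1. Prdx4 gained one in 2 of 18: 0.56 after rescaling without the mitochondrial and the 20 most abundant nuclear genes, and 0.64 without control 2. Prdx2 had the opposite sign with median-of-ratios scaling (-0.058), after rescaling to TPM (-0.21) and without control 3 (-0.0093), and was called with quantile normalization (0.52). Leaving out single libraries gave log2 changes of -0.67 to -0.58 for Prdx1, -0.0093 to 0.13 for Prdx2, -0.42 to -0.27 for Prdx3, 0.28 to 0.64 for Prdx4, -0.92 to -0.70 for Prdx5 and -1.03 to -0.80 for Prdx6. No share of the pool changed the sign of its difference when a library was left out or with quantile normalization, an alternative for shares and ratios chosen after seeing the data. With it the Prdx3 share overlapped between groups, and 10 of 15 ratios did not overlap, against 12 as deposited. The background of 68.8% of all gene pairs was computed on the deposited values only. The count of 10 is therefore not read as a result about the members. The stricter filter of 5 FPKM left 3672 called genes, since fewer were tested. As deposited 3814 genes rose and 2408 fell. Median-of-ratios scaling gave 3463 rising and 3485 falling, TPM 2012 and 3191, and rescaling without the mitochondrial and most abundant genes 5606 and 2298. Deviations of libraries with the same number correlated at 0.13, 0.03 and 0.02, so numbers were not taken as pairs; with the replicate block 6900 genes were called, and Prdx3 (limma adjusted p = 0.0301) was the only member whose call differed. For the other differences the cause was not tested. Depth is unknown, so its limit on Prdx4, the lowest member, is too.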
